A study of Mus musculus with 32 samples.

Results

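The fetal program described here is a set of 10 genes known for, or chosen by, higher levels in fetal than in adult blood progenitors: Lin28b, Igf2bp1, Igf2bp2, Igf2bp3, Hmga2, H19, Igf2, Arid3a, Dlk1 and Mycn. Members were taken by gene symbol after being selected on their measured counts in these libraries, and 7 of the 10 had a row among the 27728 genes of the count table. Lin28b, Hmga2 and Igf2 were not analysed here. The set was chosen by higher counts in fetal than in adult libraries, Igf2bp3 also by its change with adult dose and H19 by its change with fetal deletion, so those patterns are given below as descriptions without a test.

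RNA sequencing was done on progenitors sorted as Lin- cKit+ Sca1- in a study of U2af1, the gene of a splicing factor that recognises the end of introns. The 15 fetal libraries came from untreated livers at E14.5. Groups of batch A were U2af1(flox/flox) without Cre (flox control, n = 3), Vav1-Cre/U2af1(wt/flox) (heterozygous deletion, n = 3) and Vav1-Cre/U2af1(flox/flox) (homozygous deletion, n = 3), with 1 library of Vav1-Cre alone. Batch B held Vav1-Cre/U2af1(wt/S34F), called S34F (n = 4), and 1 more Vav1-Cre library. Vav1-Cre acts in blood cells, and recombination in other liver cells was not measured here. The flox control lacks Cre as well as the deletion. The 17 adult libraries came from bone marrow. Mice with Mx1-Cre, rTA and tgU2AF1(WT) on a U2af1(flox/S34F) background received polyinosinic-polycytidylic acid (pIpC), which switches on Mx1-Cre, and chow with doxycycline, which induces the tgU2AF1(WT) transgene. The dose was 10000 ppm in 4 libraries, 2500 ppm in 6 and 1250 ppm in 4. Adult controls were untreated mice with Mx1-Cre, rTA and tgU2AF1(WT) and a U2af1(wt/wt) genotype (n = 3), so they differed from the dosed mice in genotype, pIpC and doxycycline at once. The labels do not say whether replicates of a group came from separate animals or cultures, or give adult ages, so p-values measure the spread between these libraries.

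LIN28B is an RNA-binding protein that blocks the maturation of let-7 microRNAs in fetal cells. When LIN28B fades after birth, let-7 accumulates and represses transcripts that carry its target sites, among them the IGF2BP family. IGF2BP1, IGF2BP2 and IGF2BP3 bind messenger RNAs and change their stability and translation. H19 is an imprinted long non-coding RNA that is made with its neighbour Igf2 in fetal liver, and Dlk1 encodes an imprinted membrane protein that is also made by fetal hepatoblasts. ARID3A and MYCN are transcription factors, and the former is a known let-7 target in fetal lymphoid cells.

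Mature let-7 was not measured in these libraries, but its sequence allows a search for matches in the members. The 9 distinct mature let-7 and miR-98 sequences of the mouse with a name ending in 5p (RefSeq, GRCm38.p6) share 1 seed, GAGGUAG. The following 4 are printed to show that the seed, bases 2 to 8 in capitals, is fixed while the rest varies, and the pair from Mir675, a microRNA gene inside H19, is printed to show that its seeds differ from that of let-7.
mmu-let-7a-5p: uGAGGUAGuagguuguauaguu
mmu-let-7e-5p: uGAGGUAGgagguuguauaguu
mmu-let-7g-5p: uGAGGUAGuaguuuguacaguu
mmu-miR-98-5p: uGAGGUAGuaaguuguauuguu
mmu-miR-675-5p: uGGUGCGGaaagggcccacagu
mmu-miR-675-3p: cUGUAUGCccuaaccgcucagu

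The sense strand of the longest annotated 3′UTR of each gene (GENCODE M21, GRCm38) was searched for CTACCTC, the reverse complement of that seed. Of the 6 coding members, 4 held it: Igf2bp1 had 4 matches in 6337 bases, Arid3a 2 in 3082, Igf2bp2 1 in 1784 and Igf2bp3 1 in 2119. Dlk1 (2976 bases) and Mycn (913 bases) had none, nor had the longest H19 transcript (2286 bases). Shorter or mismatched sites and coding sequences were not searched, so a lack of matches does not show that a gene cannot pair with let-7. Of all 15151 coding genes searched, 9.77% had at least 1 match. Among genes with a 3′UTR within 20% of the length, the share with as many matches was 0.476% for Igf2bp1, 2.47% for Arid3a, 12.2% for Igf2bp2 and 13.5% for Igf2bp3. The 8 windows of 30 bases follow in transcript direction, with the match in capitals. An A after the match, which extends it to 8 bases, stood in 6 of the 8.
Igf2bp1, 1715 bases after the stop codon, chr11:95961776-95961805, minus strand: gcagtgctgtgcgaagtaaaCTACCTCaag
Igf2bp1, 4136 bases after it, chr11:95959355-95959384: ggaaccagcagtgctattaaCTACCTCagc
Igf2bp1, 4730 bases after it, chr11:95958761-95958790: tacgagtataaatggatgaaCTACCTCagt
Igf2bp1, 5353 bases after it, chr11:95958138-95958167: gtttcacttttggttttaatCTACCTCtta
Igf2bp2, 1313 bases after it, chr16:22059471-22059500, minus strand: gaaaaacacacaaataaaagCTACCTCagg
Igf2bp3, 548 bases after it, chr6:49086785-49086814, minus strand: aaacgtgcatttttactcaaCTACCTCagg
Arid3a, 1974 bases after it, chr10:79953890-79953919, plus strand: catgcaaggcaagtttctttCTACCTCagg
Arid3a, 2801 bases after it, chr10:79954717-79954746: aaaaaagaaaaaactgttttCTACCTCtgg

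**Figure D1:**
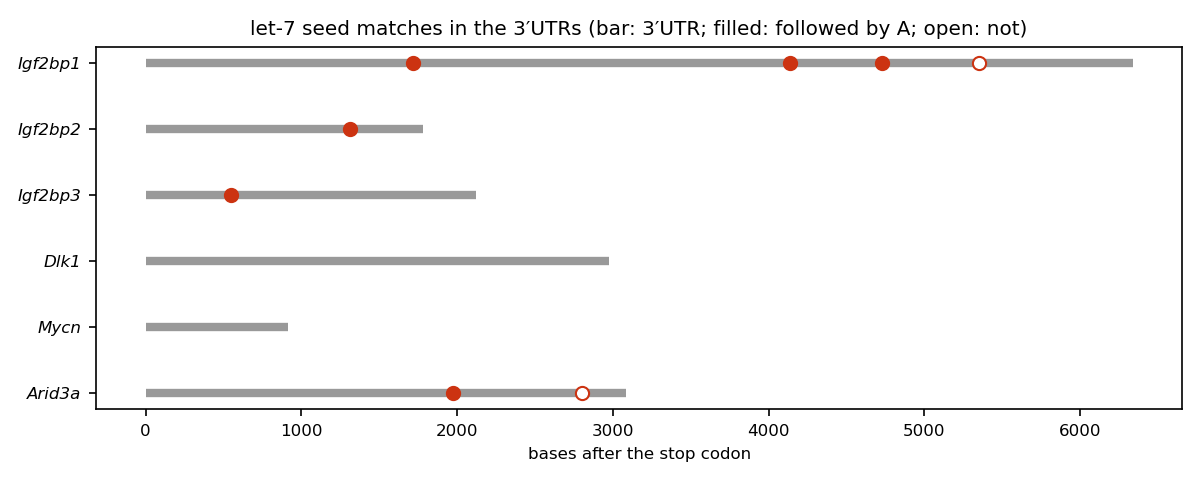
Bars show the length of the longest annotated 3′UTR of the 6 coding members, in bases after the stop codon, and circles the positions of let-7 seed matches (filled: followed by A). Igf2bp1 carries 4 of the 8 matches, and Dlk1 and Mycn carry none.

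The depth and identity of the libraries bear on every value below. Total counts ran from 26588099 to 71251200 per library. Levels are CPM, the count scaled to library size, after TMM scaling, and comparisons between genes use CPM per kb of exon. Kit, the receptor used in the sort, was at 239 to 571 CPM in fetal and 384 to 776 CPM in adult libraries. Cd3e, a T-cell gene of the lineage gate, was at 0 to 2.25 CPM over all 32 libraries, while Ly6g, a neutrophil gene of that gate, averaged 40.8 CPM at 10000 ppm and 0.960 CPM at 1250 ppm. Ly6a, which encodes Sca1, and U2af1 were not analysed here, so the counts give no check of the genotype labels. The 14 hepatocyte markers summed to 11.9 to 685 CPM in fetal and 1.61 to 11.9 CPM in adult libraries, and Alb, the albumin gene, was at 0 in every adult library. In bulk RNA, fewer cells of a type and less RNA per cell cannot be told apart.

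All 7 members were higher in each of the 15 fetal libraries than in any of the 17 adult ones. Over all 15165 genes with enough counts, 4.23% showed that separation with fetal libraries higher and 4.71% with adult libraries higher. Since the set was named for this pattern, the count is a description. Stage, tissue and genotype differ at once, and for the dosed adult libraries so does treatment. The labels give no adult batch. The members differed widely in how far they separated, from 2.91-fold for Arid3a to no adult read at all for Igf2bp1.

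**Figure D2:**
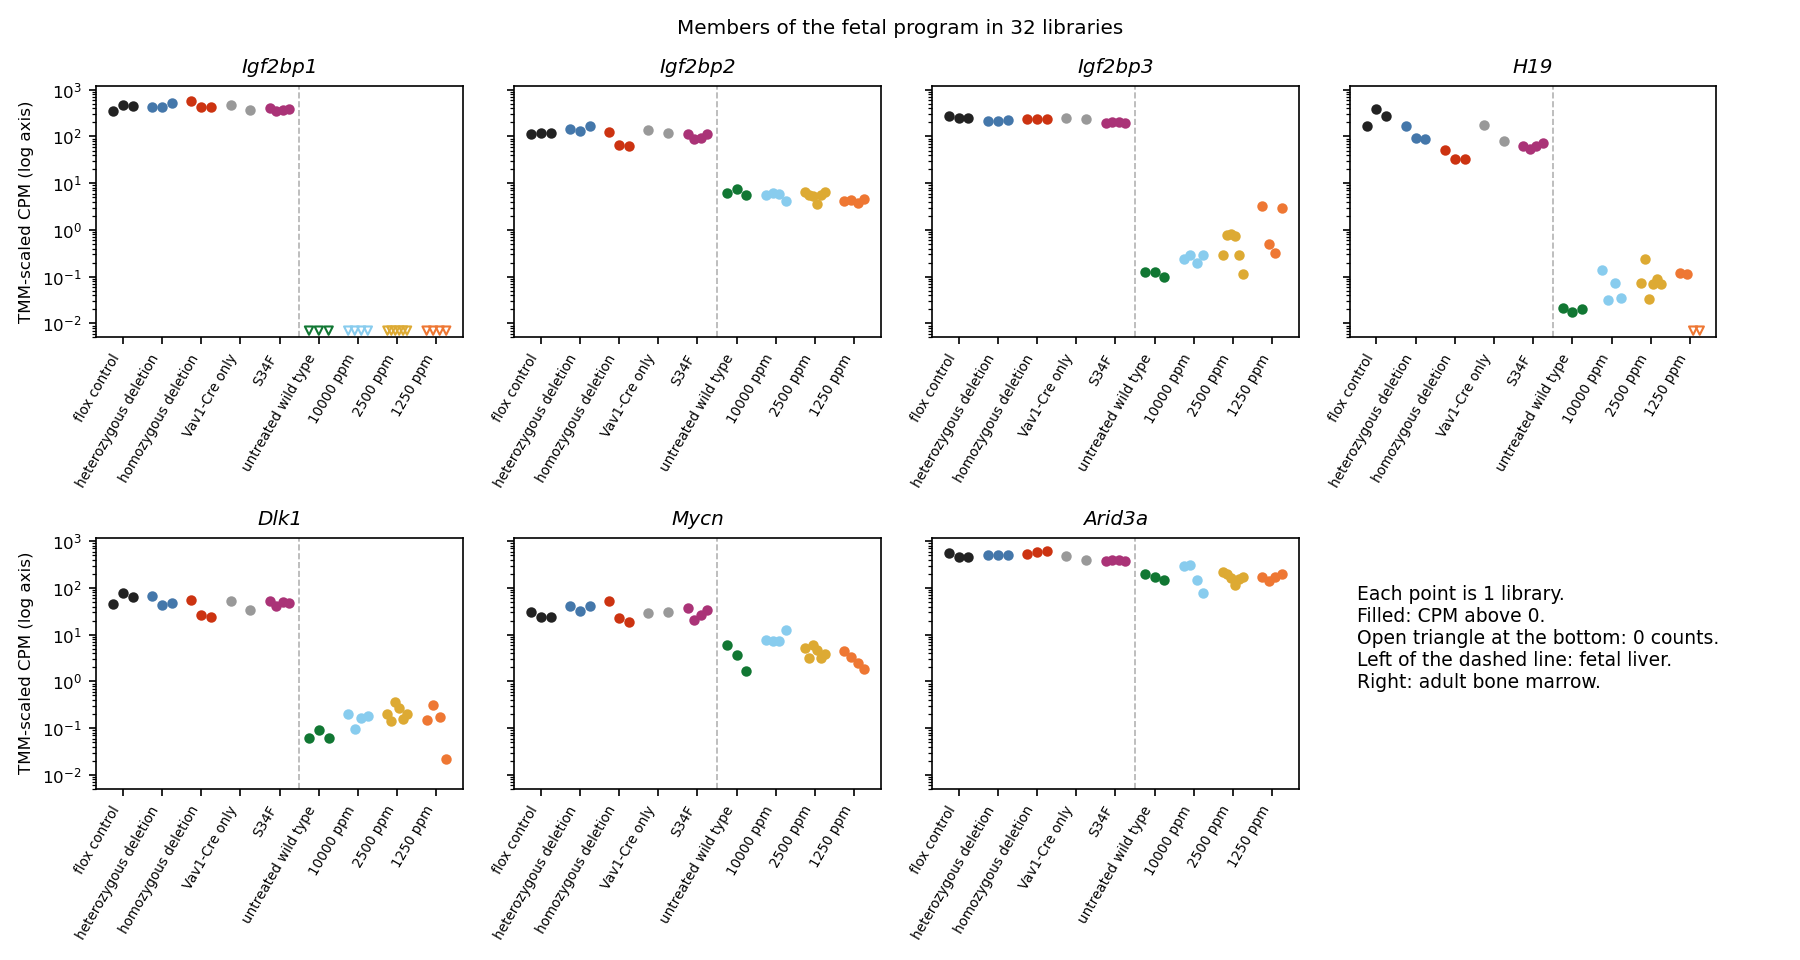
TMM-scaled CPM (log axis) of the 7 members in 32 libraries by group, 1 point per library, with open triangles for 0 counts. Every fetal point lies above every adult point in each panel, with the narrowest gap for Arid3a and Igf2bp1 at 0 in all adult libraries.

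Igf2bp1 (ENSMUSG00000013415, chromosome 11, 95957163 to 96005940, minus strand) was at 343, 465 and 459 CPM in the flox control. It ran from 343 to 571 CPM over the 15 fetal libraries, a 1.66-fold range. No read was counted in any of the 17 adult libraries. Against the limit that 3 counts over the untreated wild-type libraries allow, 0.0195 CPM, the flox control was 21662-fold higher. The exact 95% interval of the pooled ratio began at 17350 and covers counting error only. Igf2bp1 overlaps Mir3063 on its own strand and Gm29202 on the other, and the use of strand in counting is not given in the sources used here.

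Igf2bp3 (ENSMUSG00000029814, chromosome 6, 49085223 to 49214957, minus strand) was as steady in the fetus, at 193 to 280 CPM. It overlaps Malsu1 and Gm18010 on the other strand, so its few adult counts in particular could hold reads of those genes. The untreated wild type had 0.125, 0.125 and 0.1004 CPM, from 18 counts in all. The ratio of means of flox control to untreated wild type was 2217, and the ratio of their pooled counts had a 95% exact interval of 1407 to 3754 that covers counting error only.

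Igf2bp2 (ENSMUSG00000033581, chromosome 16, 22059009 to 22163299, minus strand) kept an adult level. It was at 61.5 to 164 CPM in fetal and 3.57 to 7.52 CPM in adult libraries. The flox control mean of 117 ± 4.59 CPM (SD, n = 3) was 18.1 times the untreated wild-type mean of 6.45 ± 0.975 CPM (SD, n = 3).

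H19 (ENSMUSG00000000031, lincRNA, chromosome 7, 142575529 to 142578143, minus strand) was the most variable member in the fetus. It ran from 32.5 to 390.1 CPM, a 12.01-fold range, and Dlk1 had the next widest at 3.31-fold. Adult libraries held 0 to 14 H19 counts each, which is 0 to 0.243 CPM. The untreated wild type had 3 counts in all, giving a pooled ratio of flox control to wild type of 13489 with an exact 95% interval of 4615 to 65411. H19 shares its strand with Mir675 and overlaps Gm27786 and Gm27483 on the other.

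Dlk1 (ENSMUSG00000040856, chromosome 12, 109452823 to 109463336, plus strand) was at 24.0 to 79.5 CPM in fetal and 0.0214 to 0.370 CPM in adult libraries. Its flox control mean was 900.3 times the untreated wild-type mean, which rested on 11 counts (95% exact interval of the pooled ratio 481 to 1724). Mycn (ENSMUSG00000037169, chromosome 12, 12936093 to 12941914, minus strand) was at 18.5 to 53.2 CPM in fetal and 1.65 to 12.5 CPM in adult libraries, with a ratio of 6.92. Arid3a (ENSMUSG00000019564, chromosome 10, 79927043 to 79955018, plus strand) was at 377 to 605 CPM in fetal and 79.3 to 302 CPM in adult libraries.

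Per kb of exon, the order of levels turned over between the stages. In the flox control, H19 led with 113 ± 45.7 CPM per kb (SD, n = 3), followed by Arid3a at 89.5 ± 9.41, Igf2bp1 at 43.6 ± 7.11, Igf2bp3 at 31.7 ± 2.21, Igf2bp2 at 15.8 ± 0.620, Dlk1 at 11.2 ± 2.97 and Mycn at 7.93 ± 1.30. In the untreated wild type, Arid3a stood at 30.8 ± 4.69 CPM per kb (SD, n = 3) and Mycn and Igf2bp2 at 1.15 ± 0.649 and 0.871 ± 0.132. The remaining 4 members were at or under 0.0143 CPM per kb there.

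Loss of both U2af1 alleles was measured as homozygous deletion relative to flox control. Of the 6 members tested, 1 passed edgeR's quasi-likelihood test and fell, against 41% of all 12678 genes in either direction, 22.4% lower and 18.5% higher. Dlk1 was at 46.0, 79.5 and 65.4 CPM in the flox control and at 54.4, 26.6 and 24.0 CPM in the homozygous deletion. Replicate 2 of the deletion lies inside the control range and the other 2 libraries lie below it. Dlk1 fell by 0.89 ± 0.30 on the log2 scale (edgeR, Benjamini-Hochberg adjusted p = 0.0345). The call rested on single libraries: adjusted p was 0.116 and 0.0767 without flox control replicate 4 or 5, 0.138 and 0.125 without homozygous replicate 3 or 4, and 0.0607 with DESeq2.

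Igf2bp2 was at 112, 121 and 118 CPM in the flox control and 127, 66.9 and 61.5 CPM in the homozygous deletion. Again replicate 2 was high and the other pair was below all controls. The log2 fold change of -0.49 ± 0.22 missed the threshold (edgeR adjusted p = 0.0986), and without that library it was -0.88 with an adjusted p of 0.000136. Mycn had the same split, with 31.1, 23.5 and 23.9 CPM in the control and 53.2, 23.0 and 18.5 CPM in the deletion (log2 fold change 0.24 ± 0.31, edgeR adjusted p = 0.578). Without replicate 2 its log2 fold change was -0.35 (adjusted p = 0.105).

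The other members moved little. Igf2bp3 had 279.7, 250.0 and 247 CPM in the control and 239.9, 238 and 240.4 CPM in the deletion, a log2 fold change of -0.14 ± 0.058 (edgeR adjusted p = 0.0688). Arid3a had 558, 465 and 470.5 CPM in the control and 526, 575 and 605 CPM in the deletion (log2 fold change 0.16 ± 0.081, edgeR adjusted p = 0.138, and 0.26 with an adjusted p of 0.0102 without flox control replicate 3). Igf2bp1 overlapped between the groups, with 571, 421 and 419 CPM in the deletion (log2 fold change 0.12 ± 0.14, edgeR adjusted p = 0.531).

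H19 showed the widest spread with genotype, which is why it was named. The flox control had 165, 390.1 and 278 CPM, the heterozygous deletion 170.0, 91.7 and 88.2 CPM, and the homozygous deletion 51.5, 32.5 and 33.5 CPM. The homozygous libraries lay below all others of batch A (22.3% of all genes were separated in this way from the flox control and 23.1% from the heterozygous deletion), while the heterozygous replicate 3 was level with the lowest control. The log2 fold changes were -2.86 ± 0.34 for homozygous against flox control, -1.24 ± 0.32 for heterozygous against flox control and -1.62 ± 0.33 for homozygous against heterozygous deletion.

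Transcripts of hepatocytes, the main non-blood cells of the liver, moved in the same direction between these groups. The 14 hepatocyte markers summed to 103, 685 and 429.7 CPM in the flox control, 128, 47.4 and 51.2 CPM in the heterozygous deletion and 35.5, 19.7 and 11.9 CPM in the homozygous deletion. Flox control replicate 3 and heterozygous replicate 3 had similar sums and similar H19. Vav1-Cre of batch B had 80.6 CPM H19 at a sum of 22.8, and homozygous replicate 3 had 32.5 CPM at 19.7. The latter 2 libraries differ in batch as well as genotype. None of the 14 markers was at 0 in every library of a fetal group, and 13 of the 14 fell in homozygous deletion relative to the flox control, with a median log2 fold change of -4.38 against -0.018 for all genes. In the heterozygous deletion none passed, with a median of -2.48. Macrophage markers also fell in the homozygous deletion, 8 of 8, from 318 to 361 CPM in sum to 36.9 to 52.8, as did 5 of 5 endothelial markers, from 130 to 137 CPM to 83.2 to 106. The part of these cells in the level of H19 was not tested.

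**Figure D3:**
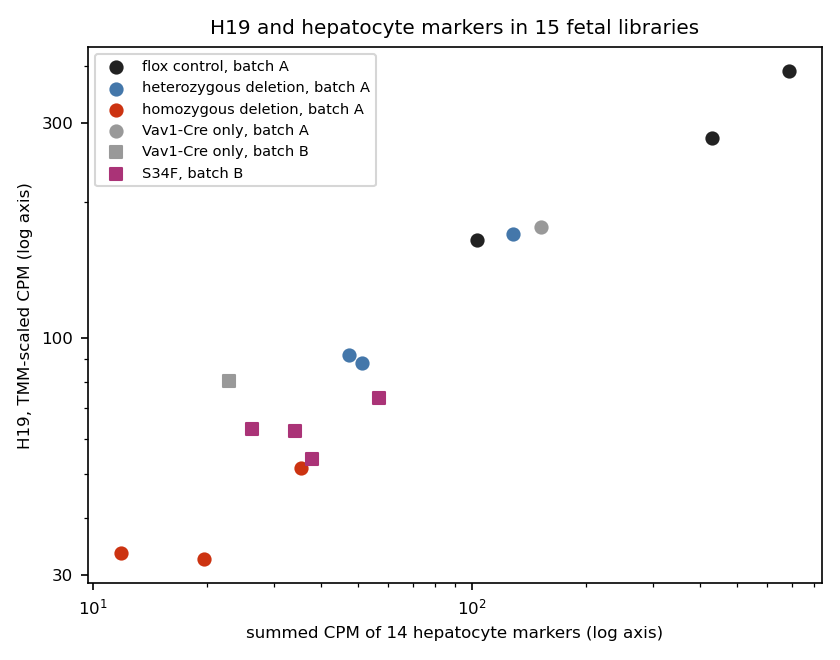
H19 (CPM, log axis) against the summed CPM of 14 hepatocyte markers (log axis) in 15 fetal libraries, with 1 point per library, circles for batch A and squares for batch B. In batch A the homozygous deletion lies at the low end of both, with 33.5 CPM H19 at a sum of 11.9, and flox control replicate 4 at the high end, with 390.1 CPM at 685. In batch B the Vav1-Cre library has the lowest sum, 22.8, and the highest H19, 80.6 CPM.

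Over the 10 libraries of batch A, the 3 genes whose log2 CPM followed H19 most closely among 9570 genes with a mean of at least 1 CPM were Ttr (Pearson r = 0.991), Alb (0.983) and Vtn (0.980), which encode the plasma proteins transthyretin, albumin and vitronectin. By Spearman rank the nearest were Ttr, Vtn and Serpind1. These correlations are a description: the libraries share their genotype groups and their content of liver RNA. In the flox control and in both deletion groups, the 3 libraries had the same order by Dlk1 as by the hepatocyte sum. Igf2bp1 and Igf2bp2 had that order too in the flox control and the homozygous deletion, and Mycn in the homozygous deletion. Mycn had the reverse order in the flox control, and Arid3a in both of these groups. Igf2bp3 had the order of the hepatocyte sum in neither. Between groups the orders could differ. Homozygous replicate 2 had 54.4 CPM Dlk1 at a sum of 35.5, and flox control replicate 3 had 46.0 CPM at 103. The part of hepatocytes in the fall of Dlk1 was not tested.

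Loss of 1 allele was measured as heterozygous deletion relative to flox control. None of the 6 tested members passed edgeR's test, and 1 of them had an unadjusted p under 0.05 and was called by DESeq2. Of all genes 0.0316% passed edgeR's test, 0.00789% higher and 0.0237% lower. That member was Igf2bp3, at 215, 217 and 220.3 CPM in the heterozygous deletion and 247 to 280 CPM in the control. The groups did not overlap, as was so for 7.99% of all genes with the control higher, and the log2 fold change was -0.23 ± 0.058 (edgeR adjusted p = 0.353, DESeq2 adjusted p = 0.021). Igf2bp2 and Mycn had the highest means of the fetal groups in this genotype, at 147.5 ± 16 and 38.9 ± 5.24 CPM (SD, n = 3), with log2 fold changes of 0.35 ± 0.22 and 0.59 ± 0.31 that did not pass (edgeR adjusted p = 0.690 and 0.642).

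Between the deletion groups, 1 of the 6 tested members passed and fell, against 42.3% of all genes in either direction, 22.4% lower and 19.8% higher. Igf2bp2 was at 146, 132 and 164 CPM in the heterozygous and 127, 66.9 and 61.5 CPM in the homozygous deletion. Every homozygous library lay below every heterozygous one, as for 23.1% of all genes, and Igf2bp2 fell by 0.84 ± 0.22 on the log2 scale (edgeR adjusted p = 0.0104). Without homozygous replicate 3 the adjusted p was 0.0531. Without replicate 2, Dlk1 (log2 fold change -1.09, adjusted p = 0.00511) and Mycn (-0.94, adjusted p = 0.00136) passed too, and with all libraries they stood at -0.63 ± 0.30 and -0.35 ± 0.31 (edgeR adjusted p = 0.111 and 0.391).

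Cell type markers moved with this comparison as well. Of the 6 sort-defining markers tested, 3 fell and 2 rose. Kit and Cd34, markers of the progenitors themselves, were lower by 0.93 and 0.73 on the log2 scale. Of the macrophage markers 8 of 8 fell, as did 4 of 4 B-cell markers, from 68.0 to 91.3 CPM in sum to 24.4 to 26.6. Of the mast cell and basophil markers 4 of 6 rose, from 421 to 435 CPM in sum to 619 to 719. Neutrophil markers rose in 3 of 4 cases. Of the endothelial, hepatocyte and stem cell markers, 4 of 5, 6 of 14 and 3 of 6 fell. Of 7 mesenchymal and stellate markers 1 rose and 1 fell, and of 4 erythroid markers none passed. The part of these cells in the fall of Igf2bp2 was not tested.

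**Figure D4:**
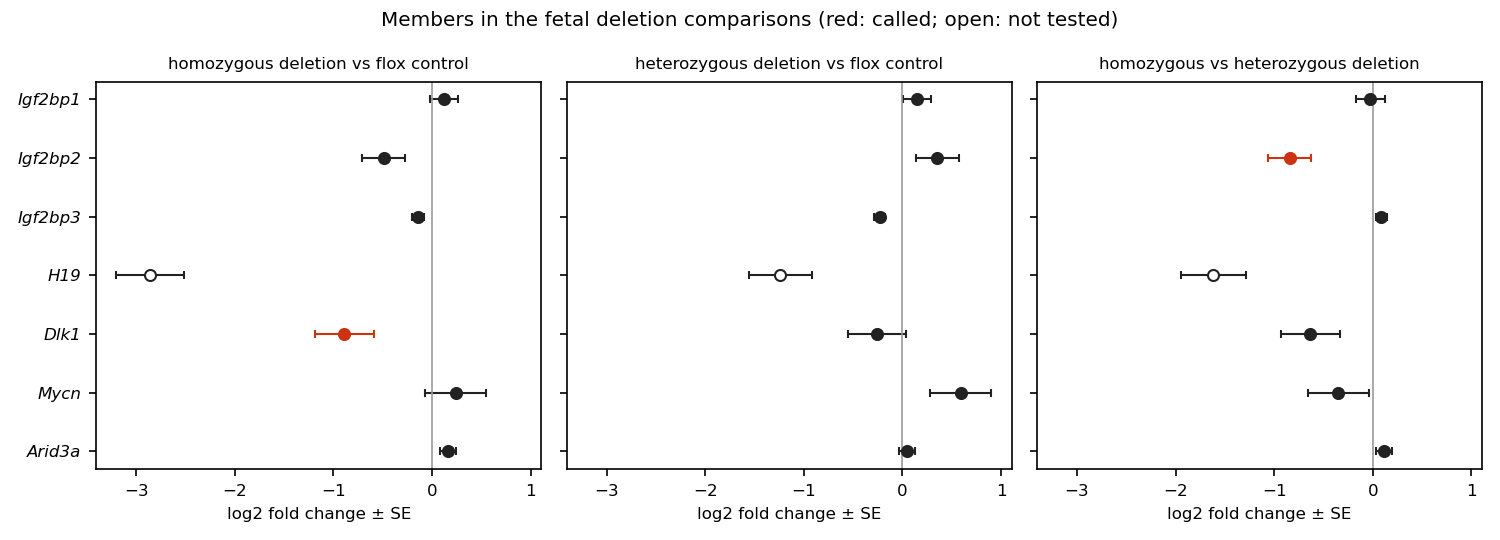
Log2 fold change ± SE of each member in the 3 fetal deletion comparisons (9 libraries). Red marks a call by edgeR, black a member that was tested and did not pass, and open circles H19, which was not tested. Dlk1 is called at -0.89 and Igf2bp2 at -0.84, each in 1 comparison.

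The S34F libraries shared batch B with 1 Vav1-Cre library, so no test was made. Igf2bp1 was at 348 to 399.7 CPM in S34F and 375 CPM in that control, Igf2bp2 at 90.0 to 113 and 116 CPM, and Igf2bp3 at 193 to 206 and 239 CPM. H19 was at 54.2 to 73.6 CPM against 80.6 CPM, at hepatocyte sums of 26.3 to 56.8 and 22.8 CPM. The single control lay above all 4 S34F libraries for 3 of the 7 members, Igf2bp2, Igf2bp3 and H19, and for 28.9% of all genes. Dlk1 was at 41.3 to 52.6 CPM in S34F and 34.1 CPM in the control, which lay below all 4, as for 25.2% of all genes. Mycn (20.9 to 37.7 and 30.9 CPM) and Arid3a (377 to 399 and 392 CPM) had the control inside the S34F range.

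Among the fetal groups, the order of levels was mostly not resolved. Neighbours in the order of means overlapped in their libraries for Igf2bp1, Igf2bp2, Dlk1 and Mycn throughout. For Igf2bp3 the flox control (259 CPM) lay above Vav1-Cre only (241 CPM), the homozygous (239 CPM) above the heterozygous deletion (218 CPM), and that above S34F (200.4 CPM), without overlap. For Arid3a the homozygous deletion (569 CPM) lay above the heterozygous one (509 CPM). For H19 the heterozygous deletion (117 CPM), S34F (63.2 CPM) and homozygous deletion (39.2 CPM) were separated. Such separations were common: of all genes, 14% had the flox control above Vav1-Cre only, 23.5% the homozygous above the heterozygous deletion, 29.4% the heterozygous deletion above S34F and 27.4% S34F above the homozygous deletion. Batch B differs from batch A in the comparison of S34F with the deletion groups, and genotype and batch cannot be told apart there.

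In the adult, the dosed groups were compared with the untreated wild type and with each other. Igf2bp1 and H19 had too few counts for a test, and Igf2bp3 was not tested since it was named for its adult change. Of the 4 members tested, none passed at any dose against the untreated wild type by edgeR, with 1 of the 4 at an unadjusted p under 0.05 at each dose. Of all genes, 1.27% passed at 10000 ppm (0.952% higher, 0.315% lower), 0.487% at 2500 ppm (0.345% higher, 0.142% lower) and 11.4% at 1250 ppm (6.76% higher, 4.66% lower). DESeq2 called Mycn at 10000 ppm (log2 fold change 1.25, adjusted p = 0.0213) and Igf2bp2 at 1250 ppm (-0.60, adjusted p = 0.0244), and none at 2500 ppm.

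Igf2bp3 was at 3.31, 0.495, 0.325 and 2.91 CPM at 1250 ppm, in replicates 1, 3, 4 and 5. At 2500 ppm it had a low of 0.114, a median of 0.517 and a high of 0.808 CPM, and at 10000 ppm 0.234, 0.285, 0.1997 and 0.284 CPM. All libraries at 1250 and 10000 ppm lay above the wild-type range of 0.1004 to 0.125 CPM, as for 15.1% and 7.98% of all genes, and 2 of them, replicates 1 and 5 at 1250 ppm, lay far above all other adult libraries. The highest adult level is still well under the lowest fetal one of 193 CPM. Log2 fold changes against the untreated wild type were 3.89 ± 0.85 at 1250 ppm, 2.10 ± 0.79 at 2500 ppm and 1.08 ± 0.84 at 10000 ppm. The slope over the 14 dosed libraries was -0.89 ± 0.24 on the log2 scale per doubling of dose. Without replicates 1 and 5 of 1250 ppm together, left out because of these values, the log2 fold change at 1250 ppm was 1.80 and the slope -0.35. Markers of macrophages and B cells were also higher at 1250 ppm than in the untreated wild type, 5 of 7 and 4 of 4, with sums of 124 to 214 against 80.2 to 179 CPM and of 38.2 to 50.6 against 18.4 to 25.4 CPM. At 10000 and 2500 ppm, 3 of 4 and 4 of 4 B-cell markers were higher as well. No macrophage marker passed there, but the median log2 fold changes, 4.55 and 4.54, were near the 4.48 at 1250 ppm. Replicates 1 and 5 at 1250 ppm had macrophage sums of 214 and 124 CPM. Mast cell and basophil markers were lower at 1250 ppm in 3 of 6 cases. The part of these cells in the level of Igf2bp3 was not tested.

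**Figure D5:**
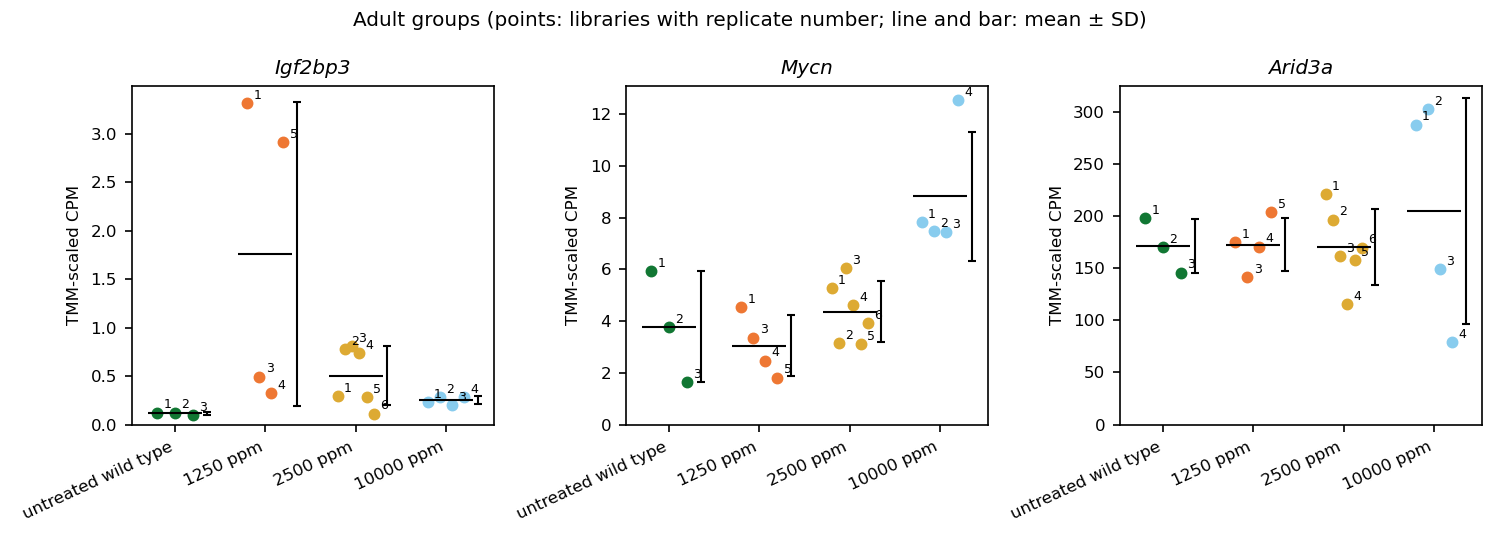
CPM of Igf2bp3, Mycn and Arid3a in the adult groups, with 1 point per library marked by its replicate number and lines and bars for mean ± SD. Igf2bp3 is high in 2 of the 4 libraries at 1250 ppm, Mycn at 10000 ppm lies above all libraries of the other groups, and Arid3a spreads from 79.3 to 302 CPM at 10000 ppm.

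Mycn rose between the lowest and the highest dose. It was at 7.83, 7.47, 7.44 and 12.5 CPM at 10000 ppm and 4.53, 3.37, 2.48 and 1.82 CPM at 1250 ppm, with 3.12 to 6.04 CPM (median 4.26) at 2500 ppm and 5.92, 3.77 and 1.65 CPM in the untreated wild type. The 4 libraries at 10000 ppm lay above all 13 others, as for 0.251% of all genes. The log2 fold change of 10000 against 1250 ppm was 1.53 ± 0.36 (edgeR adjusted p = 0.0103), where 1 of 4 tested members passed, against 18.1% of all genes in either direction, 7.53% higher and 10.6% lower. The slope was 0.52 ± 0.091 per doubling of dose (edgeR adjusted p = 0.0111), again 1 of 4 members, against 10.7% of all genes, 5.39% higher and 5.32% lower. With the replicate number as a block, no member passed for the slope. Without replicates 1 and 5 of 1250 ppm, which leaves 2 libraries in that group, the values were 1.60 (adjusted p = 0.135) and 0.53 (adjusted p = 0.0669). In these fits no gene passed, while 2668 and 2481 had an unadjusted p under 0.05. Against the untreated wild type, 10000 ppm stood at 1.23 ± 0.39 (edgeR adjusted p = 0.0933).

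Other cell markers moved between these doses too. Of the sort-defining markers 3 of 6 rose at 10000 ppm, namely Kit (0.44 on the log2 scale), Itgam (1.88) and Ly6g (5.39), the latter 2 being myeloid genes of the lineage gate. Of 7 stem cell markers 2 rose, among them Hlf by 0.70. The summed level of the stem cell list was 54.6 to 106 CPM at 10000 ppm, 36.0 to 58.7 CPM at 1250 ppm and 36.3 to 37.5 CPM in the untreated wild type. Of the hepatocyte, mesenchymal and stellate, and endothelial markers, 2 of 4, 2 of 8 and 1 of 5 rose and none fell. No macrophage, B-cell, erythroid, or mast cell and basophil marker passed. Among neutrophil markers Ngp rose (4.48) and Ctsg fell by 0.77. No stem cell, B-cell or neutrophil marker was at 0 in all libraries of either dose. The part of these cells in the rise of Mycn was not tested.

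The remaining adult members stayed near the wild type or at very low counts. Arid3a averaged 205 ± 108 CPM (SD, n = 4) at 10000 ppm, with 288, 302, 149 and 79.3 CPM, and 171 ± 26.1 CPM (SD, n = 3) in the wild type. Its log2 fold change was at most 0.26 in size in the adult comparisons, and none passed. Igf2bp2 was lowest at 1250 ppm, 4.29 ± 0.380 CPM (SD, n = 4) against 6.45 ± 0.975 CPM in the wild type (log2 fold change -0.59 ± 0.20, edgeR adjusted p = 0.0651). Dlk1 averaged 0.160 to 0.224 CPM in the dosed groups and 0.0707 CPM in the wild type, on 1 to 22 counts per library, with log2 fold changes of 1.18 to 1.64 that did not pass (edgeR adjusted p = 0.183 to 0.272).

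Over the 17 adult libraries, the genes most like Igf2bp3 among 9538 with a mean of at least 1 CPM were Arhgef10l (Pearson r = 0.911), Dcakd (0.910) and Nosip (0.899). By Spearman rank they were Grap, Fbln1 and Myo15b, so none of the 3 was shared between the measures. The libraries share dose groups, and the pair that is high for Igf2bp3 weighs on Pearson's r. Fetal libraries were not used for this choice. Grap averaged 17.3 CPM in the flox control, 10.2 CPM at 1250 ppm and 1.18 CPM in the untreated wild type, Fbln1 14.4, 2.50 and 0.382 CPM, and Arhgef10l 27.6, 25.1 and 9.23 CPM. Dcakd had 104, 45.0 and 33.3 CPM and Myo15b 23.4, 10.7 and 5.57 CPM, while Nosip had 78.9, 89.7 and 70.7 CPM. In 5 of the 6 genes the flox control mean exceeded both adult means, and Nosip was the exception.

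The genes around the program were described from fixed lists. Their counts in the homozygous deletion stand beside the 41% of all genes that passed there, 22.4% lower and 18.5% higher, and the lists were not tested as groups. Of the LIN28 and let-7 machinery, 11 of 14 genes had a row. In homozygous deletion relative to the flox control, 4 of 11 fell and none rose. These were Ago1, an Argonaute protein that carries microRNAs (194 to 130.2 CPM in the mean, log2 fold change -0.61 ± 0.081, edgeR adjusted p = 0.000253), Prkra, a partner of Dicer (-0.56), and Tut4 and Tut7, the uridyltransferases that mark let-7 precursors bound by LIN28 (-0.42 and -0.23). Against the heterozygous deletion the same 4 genes and Drosha (-0.21) fell and Syncrip rose (0.23). The calls of Tut7 and Drosha were lost in 4 and 5 of the 6 fits without 1 library (adjusted p up to 0.0825 for Tut7 against the flox control, 0.0646 against the heterozygous deletion, and 0.153 for Drosha), and those of Ago1, Prkra, Tut4 and Syncrip in none. In the adult, 1 of 10 tested genes of this list rose and 1 fell at 10000 against 1250 ppm, where 18.1% of all genes passed. Tut7 rose by 0.51 (edgeR adjusted p = 0.00304). Tarbp2 fell, with a log2 fold change of -0.41 to -0.31 over the fits without 1 library. Trim71, itself a let-7 target that is lost in adult cells, averaged 2.04 CPM in the flox control and 0.0193 CPM in the untreated wild type, and did not pass in the homozygous deletion (log2 fold change -1.38, edgeR adjusted p = 0.0950). Of 12 let-7 precursor genes only Mirlet7a-1 had a row, with too few counts for a test.

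Paralogs of the members changed in both directions in homozygous deletion relative to the flox control: 2 of 5 tested rose and 2 fell. Hmga1, the sister gene of Hmga2, averaged 1114 CPM in the control and 1591 CPM in the deletion (log2 fold change 0.48 ± 0.064, edgeR adjusted p = 0.000254), against 277 CPM in the untreated adult wild type. Arid3b rose by 0.47. Mycl, a relative of Mycn, averaged 4.54 and 0.501 CPM (log2 fold change -3.19 ± 0.23, edgeR adjusted p = 7.4e-06), and Igf1 fell by 2.74. Macrophage and hepatocyte markers fell in the same comparison, 8 of 8 and 13 of 14, and the part of these cells was not tested. In the adult, Hmga1 fell by 0.52 and Arid3b rose by 1.69 at 10000 against 1250 ppm (edgeR adjusted p = 0.00304 and 0.0136). Without replicates 1 and 5 of 1250 ppm together, edgeR adjusted p was 0.116 for Tut7, 0.178 for Tarbp2, 0.1 for Hmga1 and 0.169 for Arid3b.

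Of 10 tested IGF receptors and binding proteins, Igf1r, the receptor that transmits the signal of IGF2, rose in the homozygous deletion (448 to 647 CPM in the mean, log2 fold change 0.50 ± 0.092, edgeR adjusted p = 0.00172). Igfbp1 and Irs1 fell by 4.80 and 2.30. In the same comparison 13 of 14 hepatocyte markers fell, with a median log2 fold change of -4.38. The part of liver cells in these falls was not tested. In the adult, Igf1r was lower at 1250 ppm than in the wild type (-0.44, edgeR adjusted p = 0.0349) and higher at 10000 than at 1250 ppm (0.34, edgeR adjusted p = 0.0499). Those 2 calls were lost in 5 of 7 and 5 of 8 fits without 1 library: replicate 1 or 5 of 1250 ppm or any untreated replicate in the former, with adjusted p up to 0.097, and replicate 1 or 2 of 10000 ppm or 1, 3 or 5 of 1250 ppm in the latter, with adjusted p up to 0.129.

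Of 18 other imprinted genes tested, 7 fell in the homozygous deletion, 1 rose and 10 did not pass. Of all genes 41% passed, 22.4% lower and 18.5% higher. The median log2 fold change was -0.96, against -0.018 for all genes. The imprinted genes with the smallest p were Peg3 (18.8 to 5.64 CPM in the mean, log2 fold change -1.77 ± 0.25, edgeR adjusted p = 0.000341), Slc38a4, an amino acid transporter of liver (-3.18), and Mirg (-4.55), a non-coding RNA of the Dlk1 domain. Meg3 (-3.51), the maternal counterpart of Dlk1, Cdkn1c (-1.26), Airn and Asb4 also fell, and Phlda2 rose by 1.37. Without 1 library, Cdkn1c (homozygous replicate 3), Airn (flox control 5 or homozygous 2), Asb4 (flox control 4 or 5 or homozygous 2) and Phlda2 (flox control 5) lost their calls, with adjusted p up to 0.0545, 0.0687, 0.0947 and 0.0647. The hepatocyte, macrophage and endothelial marker sums given above moved with these genes, and their part was not tested. In the adult, Cdkn1c, an inhibitor of the cell cycle, was higher than in the untreated wild type at all 3 doses (0.678 CPM in the wild type and 8.83, 8.64 and 5.94 CPM at 10000, 2500 and 1250 ppm), by 3.71, 3.67 and 3.13 on the log2 scale (edgeR adjusted p = 0.0247, 0.043 and 0.0141). These calls rested on the wild-type libraries: without untreated replicate 1 or 2 all 3 were lost, as were those at 10000 and 2500 ppm without replicate 3. They were also lost without replicate 1 or 2 at 10000 ppm and 2 or 3 at 2500 ppm, and the highest adjusted p was 0.141, 0.253 and 0.072 by falling dose.

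Of 9 tested genes of the fetal to adult switch, Cebpa rose and Cbx2 and Bcl11a fell in the homozygous deletion. Bcl11a, which silences fetal globin genes, averaged 252 CPM in the flox control and 168 CPM in the deletion (log2 fold change -0.61 ± 0.092, edgeR adjusted p = 0.000505). Cbx2, a Polycomb subunit, averaged 35.1 and 18.8 CPM (-0.93) and Cebpa, a factor of granulocyte formation, rose by 0.54. These 3 calls were kept in all 6 fits without 1 library. In the same comparison 3 of 4 neutrophil markers rose (Elane by 0.71, Ctsg by 0.93 and Ngp by 2.81), as did 3 of 6 mast cell and basophil markers, while 4 of 4 B-cell markers fell. Neutrophil sums were 14804 to 21559 CPM in the flox control and 15624 to 17828 CPM in the deletion, with no marker at 0, and the part of these cells was not tested. None of these lists had a gene that passed edgeR's test in the heterozygous deletion against the flox control, a comparison in which 4 of 12678 genes passed, 1120 had an unadjusted p under 0.05 and DESeq2 called 119.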

How the data were processed

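Total RNA of sorted progenitors was sequenced after ribosomal depletion as paired reads, and the authors used HISAT2 2.1.0 and GRCm38 for mapping, which the series' design text states. As deposited, values are raw counts per Ensembl gene in 1 table of 32 libraries. The counting tool, annotation release, use of strand and gene filter are not given in the sources used here. Symbols, coordinates and transcripts came from GENCODE M21 (GRCm38), in which 27668 of 27728 IDs had a symbol, and microRNAs from RefSeq.

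Members and lists were chosen with earlier results of these data known. Genes were kept with filterByExpr, scaled by TMM and tested by quasi-likelihood in edgeR 4.0.16 (R 4.3.3), with Benjamini-Hochberg adjustment over all genes tested and calls at 0.05. Fetal deletions were compared in 1 fit of 9 batch A libraries, adult groups in 1 fit of 17, and the dose trend on log2 ppm in 14. SE is the log2 fold change divided by the root of edgeR's F statistic. Correlations used log2 CPM with a prior count of 2. Total counts of 26588099 to 71251200 put the limit of 3 counts at 0.0413 to 0.0964 CPM per library, and reads carry no molecular identifiers, so such limits and intervals cover counting error only.

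Named genes are the 10 members, up to 3 rising and 3 falling list genes with the smallest p per comparison and the 3 genes most like H19 and Igf2bp3. Others, such as Tut7, Meg3, Cdkn1c, Airn, Asb4, Trim71, Ly6g and Elane, were named after their values were seen. Simulated data had 200 changed genes and 1 dispersion, the spread between replicates, of 0.02 for every gene. The dispersion was set and not estimated from the members, so the rates that follow do not give the power for them. On these data, the fit of homozygous deletion against flox control (12453 genes) recovered 80 of 99 genes changed 2-fold and 95 of 97 changed 4-fold, with 6 false calls. For 10000 against 1250 ppm (12861 genes) it recovered 78 of 95 and 100 of 100, with 11 false calls. Alternatives were DESeq2 1.42.0, RLE factors, 2 other count filters, the replicate number as a block, leaving out each library, and, added after seeing the data, leaving out replicates 1 and 5 of 1250 ppm together.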

Additional observations from a re-analysis of the deposited data

Results flagged for a closer look

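Within groups of 4 to 6 libraries, 25 pairs of member and group were examined for a library far from the others, and 2 were found, where chance gives about 1 in 20. Mycn at 10000 ppm was at 12.54 CPM in replicate 4, while the other 3 libraries lay between 7.444 and 7.825 CPM. H19 at 2500 ppm was at 0.243 CPM in replicate 2, from 14 counts, while the other 5 libraries lay between 0.0337 and 0.0879 CPM.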

How the results depend on the processing

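Of the alternatives, RLE factors changed no call of a member and moved no count of called genes by over 1.5 times. For the homozygous deletion against the flox control, the number of members called was 0 with DESeq2, 2 without a count filter or with a mean of at least 50 counts, and 3 with the replicate block, in which Mycn reversed to -0.36 (adjusted p = 0.0438). It was 0 to 2 over the fits without 1 library. Between the deletions it was 2 without a filter, 3 with the block and 0 to 3 without 1 library. For the heterozygous deletion, 119 genes and 1 member passed with DESeq2, 230 genes without a filter, 0 with the block (1146 at an unadjusted p under 0.05) and 0 to 269 without 1 library. Against the untreated wild type, 10000 ppm gave 1055 genes and 1 member with DESeq2, 87 genes at a mean of at least 50 counts and 0 to 816 without 1 library. At 2500 ppm these were 567 with DESeq2, 7 at the higher count minimum, 121 with the block and 0 to 163. At 1250 ppm there were 2519 genes and 1 member with DESeq2, 702 genes without a filter, 438 with the block, 1 without replicates 1 and 5 and 68 to 1445 without 1 library. For 10000 against 1250 ppm there were 1533 without a filter, 1184 with the block, 0 genes and 0 members without replicates 1 and 5, and 1118 to 2809 without 1 library. The trend gave 2227 genes with DESeq2, 33 genes and 0 members with the block (Mycn adjusted p = 0.0523), 0 genes and 0 members without replicates 1 and 5, and 87 to 2240 without 1 library. With CPM by total count, 988 genes were higher in every fetal library, and all 7 members stayed among them under each scaling. Signs that reversed belonged to changes that had not passed the test. Arid3a at 2500 ppm was 0.0011 and 0.0028 under the other filters, 0.15 with the block and -0.12 to 0.11 without 1 library. At 1250 ppm it was -0.0025 without a filter, -0.13 without replicates 1 and 5 and -0.11 to 0.12 without 1 library, and for 10000 against 1250 ppm -0.012 with the block and -0.0041 to 0.55. Without 1 library, Dlk1 ran from -0.39 to 0.49 (10000 against 1250 ppm) and -0.15 to 0.038 (trend), Igf2bp1 from -0.024 to 0.22 (homozygous against flox control) and -0.17 to 0.070 (between deletions), and Mycn from -0.35 to 0.50 (homozygous against flox control), -0.16 to 0.68 (2500 ppm) and -0.68 to 0.16 (1250 ppm). The cause of these changes was not tested, beyond the fewer libraries or genes in some fits. Deviations of same-numbered libraries correlated at -0.11 to 0.10 in 7 fetal and -0.23 to 0.46 in 19 adult pairs. Pairs with different numbers ran from -0.12 to 0.10 (20 fetal) and -0.36 to 0.31 (87 adult). In the adult, 6 of the 19 and 15 of the 87 lay over 0.1. The labels do not say whether equal numbers pair the libraries, and pairing was not tested. With Vav1-Cre only in place of the flox control, the log2 ratio to the untreated wild type was 12.7 for H19 and 9.25 for Dlk1. Depth limits the adult levels of H19, Dlk1 and Igf2bp3, which rest on 0 to 195 counts per library. Over all single-gene values and alternatives, pathway genes included, 1253 kept their direction and call, 201 no longer passed, 13 passed newly, 27 reversed and 5 without a test moved. With the replicate block, the calls of Airn, Phlda2 and Asb4 in the homozygous deletion were lost (adjusted p = 0.128, 0.0733 and 0.0809).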
